A study of Mus musculus with 20 samples.

Results

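The genes described here are 10 immediate early response genes, Fos, Jun, Junb, Egr1, Atf3, Ier2, Ier3, Klf6, Dusp1 and Zfp36, in mouse liver. They were chosen by name, as the rows of the count table that carry these symbols, and all 10 were found among 53028 genes, of which 51903 had a symbol. The livers came from chow-fed male C57BL/6J mice, injected at 8 weeks of age with a locked nucleic acid (LNA, a chemically stabilized antisense oligomer) in 3 injections of 3 mg/kg on alternate days. The control LNA was directed against GFP (mice 1, 2, 3, 8 and 9) and the other against SNORA73, a small nucleolar RNA of the Snhg3 locus (mice 4, 6, 10, 11 and 12). The sample labels call the second group Snora37kd, while the series text names SNORA73. Total RNA of the lysate and RNA recovered from polysome fractions were sequenced from each mouse, so that the 20 libraries form 10 pairs. By the methods of the study, all mice also received cycloheximide, which stalls ribosomes on mRNA, by tail vein minutes before they were killed, and they had been fed ad libitum.

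Immediate early genes are transcribed within minutes of a stimulus, without new protein synthesis, because the factors that switch them on are already in the cell. Serum response factor with its ELK partners and the CREB family bind their promoters when MAP kinases signal, and the transcripts decay fast. In liver they are known for their rise after partial hepatectomy and in the acute phase response. Fos, Jun and Junb encode subunits of the AP-1 transcription factor and Atf3 a related leucine zipper protein, while Egr1 and Klf6 encode zinc finger transcription factors. Dusp1 encodes a phosphatase that inactivates MAP kinases, and Zfp36 encodes tristetraprolin, which binds AU-rich elements and hastens mRNA decay, so both act in negative feedback. Ier2 and Ier3 were named for their early induction, and Ier3 is linked to cell survival.

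The libraries of total RNA held 20005389 to 42023390 estimated counts and those of polysome RNA 14852951 to 33824659. Levels are CPM (counts scaled to the size of the library) after TMM normalization, a scaling that takes most genes to be equal between libraries. Scaling by the totals without it shifted the median of all genes between LNA groups to a log2 difference of -0.14 in total RNA and -0.17 in polysome RNA. Transcript lengths were not used here, so levels are compared between mice and not between genes. The snoRNAs themselves were at most 4 counts in any library (Snora73b) in these poly(A)-selected libraries, so the knockdown could not be read, and the host transcript Snhg3 had 61 to 201 counts in total RNA. The 6 hepatocyte markers read as a check of the label liver were above 0 in every library and summed to between 38767.5 and 64449.5 CPM in total RNA. Mouse 10 was the highest mouse for 19.2% of the genes tested in total RNA and mouse 11 for 20.6% in polysome RNA, the largest shares of the 10 mice, and mice 9 and 10 had the closest agreement between their libraries' deviations. The libraries are of whole tissue, so fewer cells of a type and less RNA per cell cannot be told apart.

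Promoters of 8 of the 10 genes were matched in the RefSeq table of GRCm38.p6, while Egr1 and Ier2 had no entry and were not searched. Those that hold one of the motifs searched are shown because these motifs are the textbook binding letters of the factors named above. The letters searched on both strands were TGACG (the core of the CREB site) and TGACGTCA (the full site, which contains the core). The CArG box of serum response factor and TGANTCA (the AP-1 site) were searched too. The search covered the whole promoter sequence of the table, which begins further upstream than the 200 bases before the start site shown here. All matches in the 8 promoters lay within the bases shown. Capitals mark the match, and each sequence is written 5′ to 3′ on the strand of the gene. The Fos stretch is chr12:85473690-85473889 on the plus strand. On the minus strand lie those of Junb at chr8:84978749-84978948, Atf3 at chr1:191183334-191183533, Dusp1 at chr17:26508473-26508672 and Zfp36 at chr7:28379229-28379428.
Fos: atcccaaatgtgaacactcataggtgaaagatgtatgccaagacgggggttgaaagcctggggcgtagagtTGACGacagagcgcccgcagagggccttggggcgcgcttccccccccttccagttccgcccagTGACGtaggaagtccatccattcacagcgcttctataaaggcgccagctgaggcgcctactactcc
Junb: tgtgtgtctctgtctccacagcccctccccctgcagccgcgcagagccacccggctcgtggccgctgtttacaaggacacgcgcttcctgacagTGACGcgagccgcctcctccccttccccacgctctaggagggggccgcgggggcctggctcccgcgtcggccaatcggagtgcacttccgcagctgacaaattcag
Atf3: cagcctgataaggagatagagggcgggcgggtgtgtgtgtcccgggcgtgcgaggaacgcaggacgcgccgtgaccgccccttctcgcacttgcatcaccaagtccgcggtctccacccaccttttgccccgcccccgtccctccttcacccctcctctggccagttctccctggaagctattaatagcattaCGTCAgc
Dusp1: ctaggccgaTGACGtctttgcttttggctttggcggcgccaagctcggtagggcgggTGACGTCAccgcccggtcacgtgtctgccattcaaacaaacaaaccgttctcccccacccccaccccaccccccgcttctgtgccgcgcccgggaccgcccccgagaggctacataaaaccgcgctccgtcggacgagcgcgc
Zfp36: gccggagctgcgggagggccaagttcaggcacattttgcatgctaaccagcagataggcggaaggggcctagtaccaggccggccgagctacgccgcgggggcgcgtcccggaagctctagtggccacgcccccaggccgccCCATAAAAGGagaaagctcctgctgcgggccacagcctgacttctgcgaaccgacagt

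The core TGACG was found in 4 of the 8 promoters, those of Fos, Junb, Atf3 and Dusp1, and in 20.8% of 32851 promoters of the table. Counting the base before the start site as -1, its copies in Fos begin at -129 and -66, and in Atf3 the copy lies on the opposite strand and ends at -3. The full site was found in Dusp1 alone among the 8, beginning at -143, and in 1.79% of all promoters. A CArG box was found in Zfp36 alone among the 8, beginning at -58, and in 1.63% of all promoters. TGANTCA was found in 0 of the 8 and in 7.81% of all promoters. These are matches of letters in a short window near the start site and say nothing about occupancy. Sites further upstream were not searched, so a motif not found here may lie outside the window.

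The AP-1 subunits differed widely between mice of the same group. In total RNA, Fos (ENSMUSG00000021250) was at 12.6, 0.733, 2.38, 1.34 and 12.2 CPM in GFP LNA mice 1, 2, 3, 8 and 9, a mean of 5.85 ± 6.00 (SD, n = 5). In SNORA73 LNA mice 4, 6, 10, 11 and 12, it was at 9.11, 2.32, 1.26, 1.35 and 0.850 CPM, a mean of 2.98 ± 3.47 (SD, n = 5). Mice 1, 9 and 4 stood well above the other 7, in either LNA group, and the groups overlapped. Jun (ENSMUSG00000052684) was at 50.7, 16.8, 35.1, 18.1 and 61.7 CPM in the GFP LNA mice in the same order (36.5 ± 19.8, SD, n = 5). With the SNORA73 LNA it was at 26.4, 18.6, 28.9, 15.5 and 19.1 CPM (21.7 ± 5.65, SD, n = 5). Mice 9, 1 and 3, all controls, had the highest Jun levels, and all 5 SNORA73 LNA mice lay below them. Junb (ENSMUSG00000052837) was at 43.4, 11.3, 13.7, 11.6 and 26.1 CPM with the GFP LNA and at 29.3, 20.1, 20.7, 22.2 and 19.1 CPM with the SNORA73 LNA. Its lowest 3 mice as well as its highest were controls, so the SNORA73 LNA mice lay inside the control range.

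Atf3 and Egr1 spanned the widest ranges next to Fos. Atf3 (ENSMUSG00000026628) was at 2.10, 0.318, 0.651, 0.567 and 11.8 CPM with the GFP LNA (3.09 ± 4.94, SD, n = 5) and at 1.44, 1.28, 1.16, 0.251 and 0.425 CPM with the SNORA73 LNA (0.910 ± 0.535, SD, n = 5). The level of mouse 9 set the control mean, and the counts behind the other 9 values were 5 to 71. Egr1 (ENSMUSG00000038418) was at 93.3, 16.6, 22.3, 8.43 and 72.0 CPM with the GFP LNA (42.5 ± 37.7, SD, n = 5). With the SNORA73 LNA, Egr1 was at 60.4, 20.9, 9.06, 19.7 and 17.4 CPM (25.5 ± 20.1, SD, n = 5). As for Fos, mice 1, 9 and 4 led, and the other 7 lay between 8.43 and 22.3 CPM. Klf6 (ENSMUSG00000000078) was at 23.2, 14.8, 16.7, 15.1 and 68.6 CPM with the GFP LNA and at 18.3, 15.6, 15.4, 18.9 and 13.4 CPM with the SNORA73 LNA, so that mouse 9 alone stood apart.

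Ier2 (ENSMUSG00000053560) was at 31.4, 19.7, 18.0, 10.5 and 23.2 CPM in the controls and at 25.5, 18.3, 11.1, 21.0 and 22.1 CPM in the SNORA73 LNA mice, and the groups overlapped. Ier3 (ENSMUSG00000003541) was scarce, at 0.889, 0.269, 0.427, 0.527 and 1.30 CPM in the controls and at 0.799, 0.311, 0.604, 0.401 and 0.425 CPM with the SNORA73 LNA. It rested on 8 to 36 counts per library in total RNA, so small differences in Ier3 were not detectable at this depth. Dusp1 (ENSMUSG00000024190) was at 48.3, 13.6, 28.5, 25.3 and 16.0 CPM in the controls and at 32.6, 30.6, 21.2, 34.8 and 40.8 CPM with the SNORA73 LNA. Mouse 1 was highest, as for Fos, Junb, Egr1 and Ier2, and mouse 9, among the top 3 for 8 other genes of the group, was next to lowest for Dusp1. Zfp36 (ENSMUSG00000044786) varied least, at 79.3, 66.4, 69.7, 68.7 and 61.7 CPM in the controls and at 74.9, 80.0, 50.3, 72.5 and 71.4 CPM with the SNORA73 LNA.

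**Figure D1:**
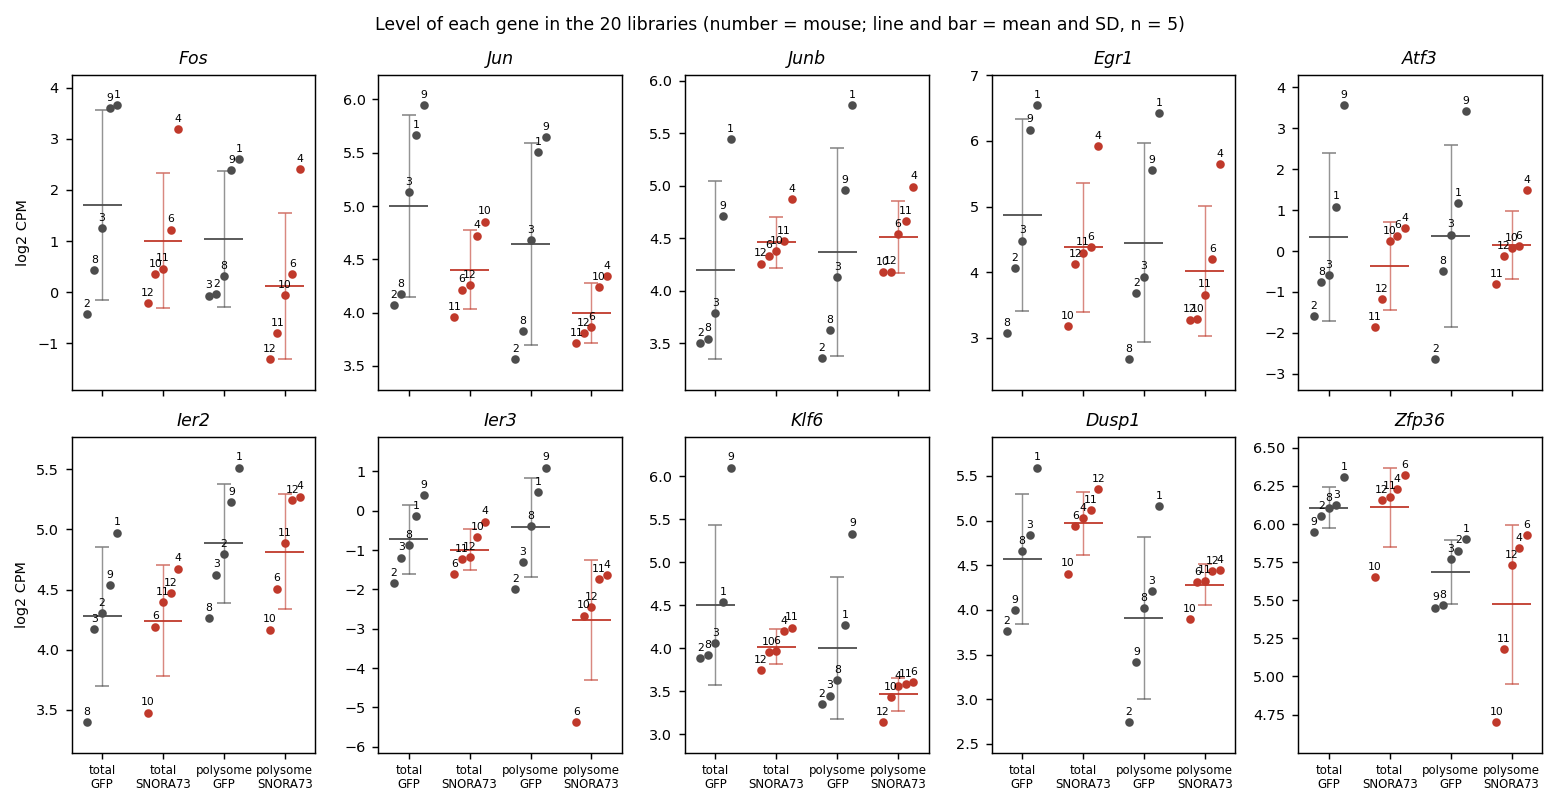
Level of each gene as log2 CPM (vertical axes) in total and polysome RNA of GFP LNA (grey) and SNORA73 LNA (red) mice. Each point is 1 mouse and carries its number, the long line is the mean and the bar the SD of 5 mice. Mice 1, 9 and 4 sit at the top for Fos and Egr1 in both RNAs, and the 1.59-fold range of Zfp36 in total RNA contrasts with the 47.2-fold range of Atf3. The Ier3 point of mouse 6 in polysome RNA is a count of 0 drawn with a pseudocount of 0.5.

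The ratio of the highest to the lowest mouse in total RNA was 47.2 for Atf3, 17.2 for Fos, 11.1 for Egr1 and 5.11 for Klf6. It was between 2.98 and 4.85 for Ier3, Jun, Junb, Dusp1 and Ier2, and 1.59 for Zfp36. The SD of log2 CPM within LNA groups, pooled over both, was 1.64 for Atf3, 1.61 for Fos and 1.24 for Egr1, against a median of 0.25 over the 13195 genes tested in total RNA. Only 0.887%, 0.909% and 1.32% of those genes had a larger SD than these 3, respectively. In total RNA 9 of the 10 genes were above that median, Zfp36 being the exception with 0.21. In polysome RNA all 9 genes that passed the filter on low values were above the median of 0.34. Genes with few counts vary more for counting reasons alone, which touches Ier3 and Atf3 most.

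The high values fell on the same animals. Mouse 1 was among the 3 highest mice for all 10 genes in total RNA and for all 10 in polysome RNA, and was the highest for 5 in each, Fos, Junb, Egr1, Ier2 and Dusp1. Mouse 9 was among the 3 highest for 8 genes in total RNA and 7 in polysome RNA, and was the highest for Jun, Atf3, Ier3 and Klf6 in both. Mouse 4, which received the SNORA73 LNA, was among the 3 highest for 7 genes in each RNA. Over all genes tested, these 3 mice were among the 3 highest for 26.9%, 33.6% and 29.0% of genes in total RNA, in the same order. In polysome RNA these shares were 25.1%, 29.4% and 27.4%. Mice 1 and 9 were the highest for 7.33% and 14.2% of all genes in total RNA and for 4.83% and 10.1% in polysome RNA. Mouse 2 was the lowest for 4 genes in each RNA, and mouse 6 was the highest for Zfp36 only.

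**Figure D2:**
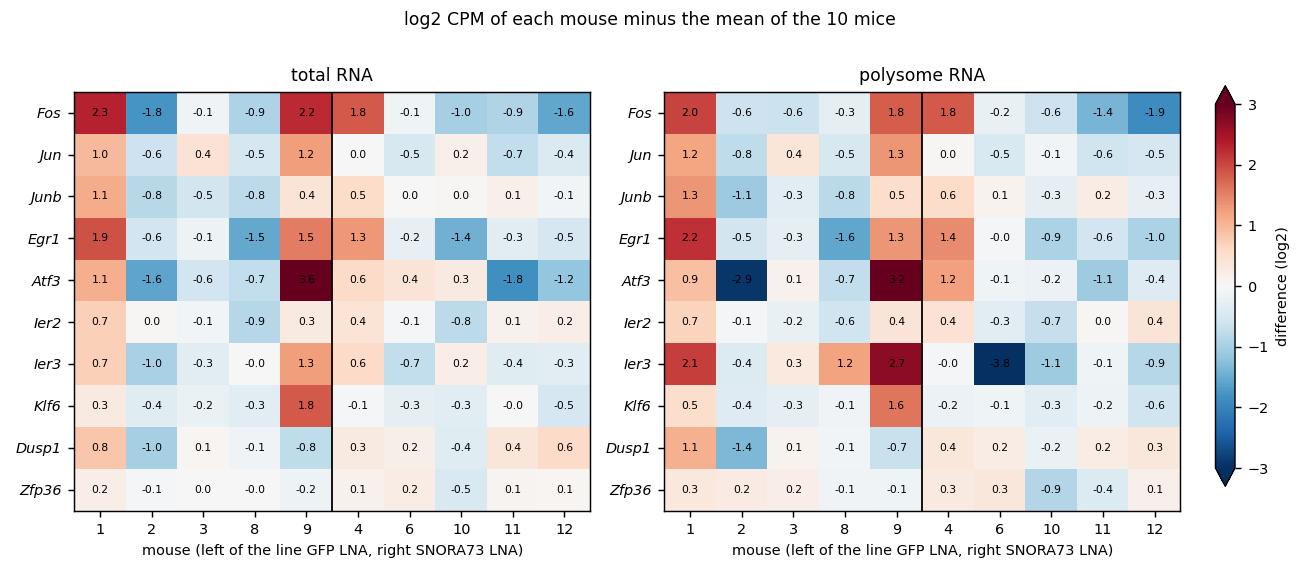
Difference of each mouse from the mean of the 10 mice, in log2 CPM, for each gene (rows) and mouse (columns) in total (left) and polysome (right) RNA. Colours are cut at 3 in either direction and the cells carry the values. The columns of mice 1, 9 and 4 are mostly above 0 in both RNAs, while in the rows of Dusp1 and Zfp36 mouse 9 lies below 0.

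The correlation across the 10 mice of each gene with the mean standardized deviation of the others, both taken as deviations from the LNA group mean, was 0.94 for Fos, 0.93 for Egr1 and 0.92 for Junb in total RNA. For Jun, Ier3, Atf3, Ier2 and Klf6 it lay between 0.63 and 0.76, and for Dusp1 and Zfp36 it was 0.32 and 0.21. These values are descriptions, since 3 of the mice carry much of the range. The 5 other genes most like the mean of the group by this measure, of 11761 compared in total RNA, were Irf1 (0.92), Mrps21 (0.92), Tctn1 (0.91), Agrn (0.90) and Btg2 (0.90). Irf1 encodes an interferon-induced transcription factor and Btg2 an antiproliferative protein, and both are early response genes themselves. Btg2 ran from 4.47 to 30.3 CPM and was highest in mouse 1. In polysome RNA, of 11602 genes compared, the 5 were Zfp950 (0.92), Relb (0.90), Plau (0.85), Acsm2 (0.84) and Zbtb10 (0.84), and 0 genes stood in both lists.

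Markers of other cells were read beside these levels. The summed level of 6 neutrophil markers in total RNA was 6.64 CPM in mouse 1, 5.90 in mouse 9 and 4.63 in mouse 4, against 1.24 to 2.53 CPM in 6 others. The highest sum, 13.0 CPM, was in mouse 10, which was among the 3 highest for 0 of the 10 early genes. Each library had 1 to 3 of these 6 markers at 0 in total RNA, and their part in the levels of the early genes was not tested. Kupffer cell markers summed to between 112 and 216 CPM, and the sums of mice 1, 9 and 4 were 122, 195 and 146 CPM. Glucocorticoid response genes summed to 491 CPM in mouse 1 and 715 CPM in mouse 4, the lowest and the third lowest sums of the 10 mice. They summed to 858 CPM in mouse 9, the sixth lowest, and to 2406 CPM in mouse 10, the highest. The summed heat shock genes were at 2015, 1610 and 1703 CPM in mice 1, 9 and 4, within the range of the other mice (1250 to 2109 CPM).

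The first comparison asked whether the SNORA73 LNA changed the steady level of these mRNAs in liver. In total RNA, 0 of the 10 genes passed an FDR of 0.05 (edgeR quasi-likelihood test, Benjamini-Hochberg adjustment over all genes), where 4 of 13195 genes did, or 0.0303%. At an unadjusted p under 0.05 there was 1, Jun, against 8.65% of all genes, and limma-voom and DESeq2 called 0 of the 10 as well. The log2 fold changes were negative for 7 genes and positive for 3, with a median of -0.58 beside 0.01 over all genes tested. Jun was at -0.75 (SE 0.34, adjusted p = 0.562 by edgeR), which is 1.68-fold lower on average. Atf3 was at -1.75 with a 95% interval from -3.74 to 0.25, and Fos at -0.997 with an interval from -2.79 to 0.79. Egr1 and Klf6 were at -0.74 and -0.76, with intervals from -2.12 to 0.63 and from -1.60 to 0.08. Thus for the widely varying genes the data could not tell no change from a several-fold decrease. The estimates of Zfp36 (0.01, interval -0.26 to 0.28) and Ier2 (-0.07, interval -0.64 to 0.50) were better bounded, and Junb, Ier3 and Dusp1 were at 0.07, -0.43 and 0.28.

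The estimates depended on single mice. Without control mouse 9, Atf3 moved from -1.75 to -0.01 and Klf6 from -0.76 to -0.11, and without control mouse 1, Fos moved from -0.997 to -0.49 and Egr1 from -0.74 to -0.23. Without SNORA73 LNA mouse 4 they moved the other way, Fos to -1.996 and Egr1 to -1.34, and no gene of the 10 was called without any 1 mouse. Jun stayed between -0.94 and -0.49 in all 10 of these fits, and was at -0.60 without mice 9 and 10 together. No gene of the 10 had groups that did not overlap, in total or in polysome RNA, where 1.80% and 3.20% of all genes tested had such groups. Between the LNA groups, the summed neutrophil markers ran from 2.40 to 6.64 CPM in the controls and from 1.24 to 13.0 CPM with the SNORA73 LNA. The 6 sinusoidal endothelial markers summed to between 94.4 and 117 CPM in the controls and between 111 and 131 CPM with the SNORA73 LNA. Of these, 1 was called higher, Stab2. In polysome RNA these sums did not overlap, at 83.6 to 94.2 CPM in the controls and 103 to 114 CPM with the SNORA73 LNA, where 0 of the 6 were called. Stab2 stood apart, at log2 fold changes of 1.06 in total RNA and 1.01 in polysome RNA. The other endothelial markers lay between -0.10 and 0.30 in total RNA and between 0.17 and 0.35 in polysome RNA. The part of the neutrophil and endothelial markers in the values of the early genes in either RNA was not tested.

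**Figure D3:**
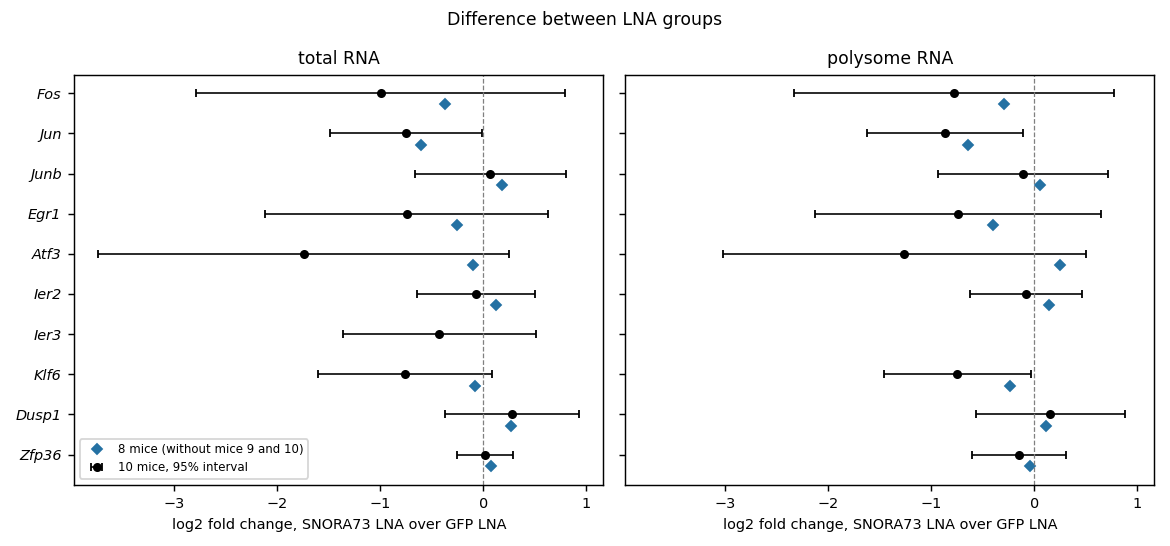
Log2 fold change of SNORA73 LNA over GFP LNA mice for each gene in total (left) and polysome (right) RNA. Black points and bars are the edgeR estimates and 95% intervals from 10 mice, and blue diamonds the estimates without mice 9 and 10. Every interval but those of Jun in both RNAs and Klf6 in polysome RNA spans 0, and the diamonds of Atf3, Fos, Egr1 and Klf6 lie nearer to 0 than the points. Ier3 did not pass the filter in polysome RNA, nor without mice 9 and 10.

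Polysome RNA gave the same question for the mRNA carried by ribosomes. There 0 of the 9 genes tested passed an FDR of 0.05, where 2 of 13060 genes did, or 0.0153%. At an unadjusted p under 0.05 there were 2, against 13.4% of all genes. These were Jun at -0.86 (SE 0.35, adjusted p = 0.314 by edgeR) and Klf6 at -0.75 (SE 0.33, adjusted p = 0.357 by edgeR). Without mice 9 and 10, Jun was at -0.64 and Klf6 at -0.23. Jun in polysome RNA was at 45.3, 11.8, 25.6, 14.2 and 50.1 CPM in the controls and at 20.3, 14.5, 18.9, 13.1 and 13.99 CPM with the SNORA73 LNA, and 3 controls lay above all 5 of the latter. The other estimates were -1.26 for Atf3, -0.78 for Fos, -0.74 for Egr1, -0.11 for Junb, -0.08 for Ier2, -0.15 for Zfp36 and 0.15 for Dusp1, and the median of the 9 was -0.74 beside -0.01 over all genes. Here too single mice moved the estimates. Without control mouse 9, Atf3 turned to 0.19 and Klf6 moved to -0.24, and without control mouse 1, Egr1 moved to -0.02 and Fos to -0.31. Without SNORA73 LNA mouse 4, Fos was at -1.85, Egr1 at -1.41 and Atf3 at -1.76, and Jun stayed between -1.06 and -0.58 in all 10 of these fits.

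For each of the 10 genes the mouse with the highest polysome level was also the one with the highest total RNA level, but the order below it changed. Fos was at 6.04, 0.955, 0.943, 1.22 and 5.23 CPM in polysome RNA of control mice 1, 2, 3, 8 and 9 and at 5.29, 1.26, 0.944, 0.546 and 0.366 CPM in SNORA73 LNA mice 4, 6, 10, 11 and 12. Egr1 was at 85.8, 12.8, 15.3, 6.35 and 46.8 CPM and at 50.1, 18.3, 9.71, 12.6 and 9.67 CPM, in the same order. For both, mice 1, 4 and 9 were again the 3 highest, with mouse 4 above mouse 9, where total RNA had the reverse. Klf6 was at 19.3, 10.2, 10.9, 12.3 and 40.3 CPM in the controls and at 11.8, 12.1, 10.7, 11.97 and 8.79 CPM with the SNORA73 LNA, so that mice 9 and 1 stood above the other 8. Atf3 was at 2.23, 0.136, 1.30, 0.688 and 10.7 CPM and at 2.76, 1.06, 1.03, 0.546 and 0.879 CPM, with mouse 9 apart as in total RNA. Junb was at 54.4, 10.2, 17.5, 12.3 and 31.0 CPM and at 31.7, 23.2, 18.1, 25.3 and 18.1 CPM, and the lowest 3 mice were again controls.

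Ier3 did not pass the filter in polysome RNA, since only 3 of the 10 libraries, all controls, were above 0.5 CPM. Its counts there were 40, 5, 14, 14 and 51 in control mice 1, 2, 3, 8 and 9, and 5, 0, 3, 5 and 2 in SNORA73 LNA mice 4, 6, 10, 11 and 12. The levels were 1.37, 0.227, 0.388, 0.741 and 2.12 CPM against 0.294, 0, 0.135, 0.273 and 0.147 CPM, and the groups overlapped through control mouse 2. When all 20 libraries were fitted together, Ier3 entered through its total RNA and control libraries and was called lower, at -2.52 (adjusted p = 0.0478 by edgeR), where 2.30% of all genes were called and 0.544% called lower. With no filter beyond 1 count in polysome RNA alone, it was at -2.52 with an adjusted p of 0.141. A gene that enters a test through the group in which it is high is likelier to differ, so the call is given as a value only.

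The next comparison set polysome RNA against total RNA of the same livers, a measure of polysome loading, where values are relative to the average mRNA. Ier2 was loaded more, and Dusp1 and Zfp36 less, than average. Ier2 was at 45.7, 27.8, 24.7, 19.2 and 37.5 CPM in polysome RNA of the controls and at 38.7, 22.7, 17.9, 29.6 and 37.8 CPM with the SNORA73 LNA. It was higher in polysome than in total RNA in 10 of 10 mice, by 0.30 to 0.82 on the log2 scale. Dusp1 was at 35.8, 6.68, 18.5, 16.2 and 10.7 CPM in polysome RNA of the controls and at 21.8, 19.8, 14.8, 20.1 and 21.6 CPM with the SNORA73 LNA. Zfp36 was at 59.8, 56.7, 54.5, 44.2 and 43.8 CPM and at 57.3, 60.8, 26.0, 36.2 and 53.0 CPM, in the same order. Both were lower in polysome than in total RNA in 10 of 10 mice.

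In the fit without a term for the mouse, 3 of the 10 genes were called, where 55.5% of all genes were. Ier2 was higher (log2 difference 0.55, SE 0.20, adjusted p = 0.0238 by edgeR), and Dusp1 (-0.68, SE 0.25, adjusted p = 0.0247 by edgeR) and Zfp36 (-0.54, SE 0.13, adjusted p = 0.00142 by edgeR) were lower. Without mouse 12 the call of Zfp36 alone remained, without mouse 11 those of Ier2 and Zfp36. With the mouse as a replicate block, 8 of the 10 were called, 1 higher and 7 lower, where 65.5% of all genes were, 33.2% higher and 32.4% lower. The members lower in polysome RNA were Dusp1 at -0.70, Ier3 at -0.68, Klf6 at -0.56, Zfp36 at -0.56, Jun at -0.42, Egr1 at -0.42 and Fos at -0.86. Their adjusted p by edgeR ran from 2.76e-07 for Dusp1 to 0.0486 for Ier3, and the call of Ier3 was lost in 9 of the 10 fits that left out 1 mouse. Ier3 also entered this fit through its total RNA and control libraries. With the SNORA73 LNA it had 0 to 5 polysome counts, so its call is given as a value only. Ier2 was at 0.55 (SE 0.06, adjusted p = 1.46e-06 by edgeR) in the blocked fit. The median of the 10 was -0.49 beside 0.00 over all genes.

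Jun and Klf6 were lower in polysome than in total RNA in 10 of 10 mice, by 0.18 to 0.63 and by 0.28 to 0.77 on the log2 scale. Over all genes tested, 19.1% were lower in every mouse and 20.1% higher in every mouse. Fos and Egr1 were lower in 9 of 10 mice, the exceptions being mouse 2 for Fos (0.34) and mouse 10 for Egr1 (0.08). The log2 ratios had a smaller SD between mice than the log2 total RNA levels for 8 of the 10 genes, for Egr1 0.29 against 1.20. The exceptions were Ier3, with 1.39 against 0.69, and Zfp36, with 0.26 against 0.20. Junb and Atf3 were not called in either fit, at 0.08 (interval -0.06 to 0.22) and 0.25 (interval -0.15 to 0.66) in the blocked one. Junb was higher in polysome RNA in 7 of 10 mice and Atf3 in 6 of 10. Within the LNA groups, the blocked fit called 7 of the 10 in the controls, where 56.1% of all genes were (27.2% lower). With the SNORA73 LNA it called 8 of the 10, where 51.1% were (25.1% lower), Ier3 being the added gene. That call of Ier3 rests on 0 to 5 polysome counts and is given as a value only.

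**Figure D4:**
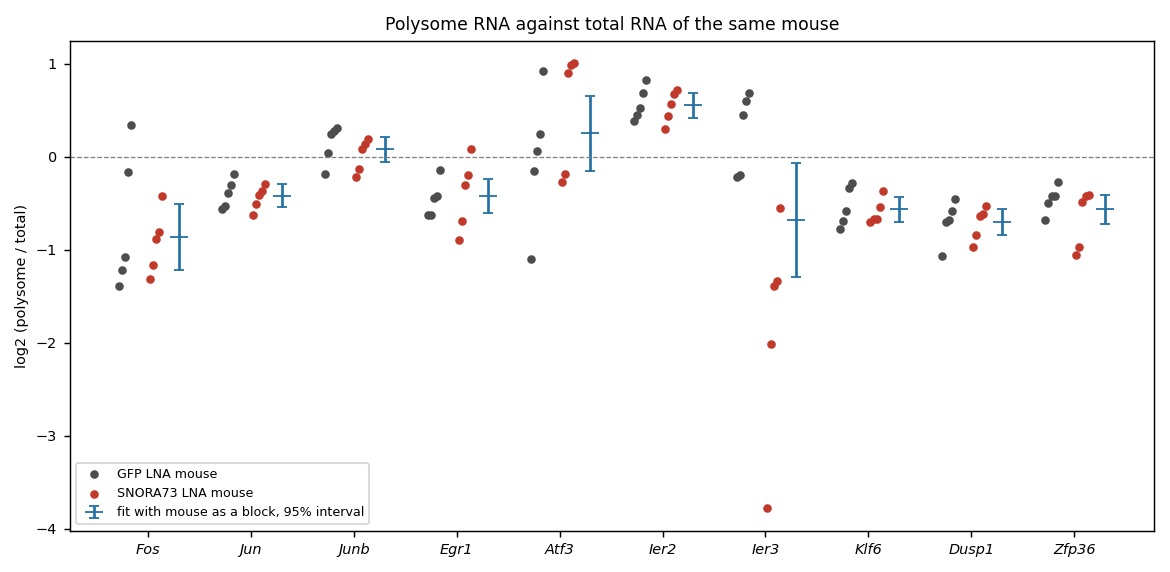
Log2 ratio of polysome to total CPM (vertical axis) for each gene (horizontal axis) in each GFP LNA (grey) and SNORA73 LNA (red) mouse, with the estimate and 95% interval of the fit with mouse as a block in blue. All 10 points of Jun, Klf6, Dusp1 and Zfp36 lie below 0 and all 10 of Ier2 above it. The Ier3 points of the SNORA73 LNA mice run from -3.78 to -0.55, and the lowest is a count of 0 drawn with a pseudocount of 0.5.

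Whether the SNORA73 LNA altered polysome loading was tested as the interaction of LNA and RNA over the 20 libraries. Of the 10 genes, 0 were called (edgeR), where 1 of 13795 genes was, or 0.00725%. At an unadjusted p under 0.05 there was 1, Ier3, against 2.91% of all genes, and 0 of the 10 were called with the replicate block, by limma-voom or by DESeq2. For Jun, Egr1, Klf6, Ier2 and Dusp1 the mean log2 ratios of the LNA groups differed by less than their SDs, for example -0.39 ± 0.16 and -0.44 ± 0.13 for Jun and 0.57 ± 0.18 and 0.54 ± 0.17 for Ier2 (GFP and SNORA73 LNA, SD, n = 5 each). The blocked 95% intervals of the change with the SNORA73 LNA ran from -0.30 to 0.19 for Jun, from -0.29 to 0.23 for Ier2 and from -0.32 to 0.25 for Dusp1. For Atf3 the interval was wide, from -0.51 to 1.11.

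Ier3 was the gene of the group with the largest difference in loading. Its log2 ratio was 0.60, -0.22, -0.19, 0.45 and 0.69 in control mice 1, 2, 3, 8 and 9 and -1.38, -3.78, -2.02, -0.55 and -1.33 in SNORA73 LNA mice 4, 6, 10, 11 and 12. The groups did not overlap, and 1.75% of all genes had non-overlapping groups by this measure. The interaction was -2.09 (adjusted p = 1 by edgeR), and -2.01 with the replicate block (adjusted p = 0.404 by edgeR). The ratios with the SNORA73 LNA rest on 0 to 5 counts in polysome RNA, and the difference did not pass the correction for all genes.

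Levels in polysome RNA followed those in total RNA across the 10 mice. Both RNAs of a mouse came from the same liver, so some relation is likely for any gene that varies between mice. Other genes were not tested in this way, so it is not known whether the values are particular to these 10. Pearson's r of log2 CPM was between 0.90 and 0.99 for 8 of the genes, with Jun highest at 0.99 (Spearman's rho 0.94, permutation p = 3e-05 and 0.00018, adjusted over 10 relations 7.5e-05 and 0.00045). For Fos, r was 0.93 and rho 0.70 (permutation p = 0.00099 and 0.0307, adjusted 0.00124 and 0.0342). For Zfp36, r was 0.81 and rho 0.73 (permutation p = 0.0105 and 0.0200, adjusted 0.0117 and 0.0250), and for Ier3, r was 0.72 and rho 0.64 (permutation p = 0.0197 and 0.0553, adjusted 0.0197 and 0.0553). Leaving out the 2 mice farthest from the median in total RNA left r between 0.81 and 0.97 for the other 7 genes, permutation p 0.0176 or smaller. It lowered r to 0.66 for Klf6 (permutation p = 0.0728, without mice 1 and 9), to 0.40 for Ier3 (permutation p = 0.338, without mice 1 and 9) and to 0.36 for Zfp36 (permutation p = 0.386, without mice 9 and 10). The relation thus rested on those mice for these 3 genes. As deviations from the LNA group means, all 10 had r between 0.81 and 0.98.

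Further early response genes were read from a list of 47, of which 38 passed the filter in each RNA. In the LNA comparison 0 of 38 were called in either RNA, with medians of -0.16 in total RNA and -0.17 in polysome RNA. The lowest in both was Nr4a1, an orphan nuclear receptor gene, at -1.35 and -1.81 (adjusted p = 0.538 and 0.314 by edgeR), and the highest was Pim1, a kinase gene, at 0.54 and 0.49. In total RNA mouse 9 was the highest for 17 and mouse 1 for 9 of the 38, where they were the highest for 14.2% and 7.33% of all genes. Each was among the 3 highest for 23, where the shares over all genes were 33.6% and 26.9%. Mouse 4 was the highest for 0 of the 38 and among the 3 highest for 13, where the shares over all genes were 6.11% and 29.0%. By SD within groups, 35 of the 38 were above the median of all genes in total RNA.

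In polysome against total RNA, 3 of the 40 other early genes tested were higher and 9 lower, where 28.5% and 26.9% of all genes were. With the replicate block 6 were higher and 20 lower, where 33.2% and 32.4% of all genes were. Higher in the fit without the block were Cebpb (0.90), which encodes a leucine zipper factor of the acute phase, Ier5l (0.76) and the AP-1 subunit gene Jund (0.69). The 5 lowest were Zfp36l1 (-1.66), a relative of Zfp36, Dusp6 (-1.43), which encodes an ERK phosphatase, and Tnfaip3 (-1.08), Ccn2 (-1.08) and Nfkbiz (-1.05). Of 22 upstream kinases and factors, 0 were called between LNA groups in either RNA, and 4 were higher and 12 lower in polysome RNA (4 and 15 with the block). Those with the largest values were Map2k2 (1.14), Mapk3 (0.69) and Srf (0.62) among the higher, and Atf2 (-1.37), Elk1 (-1.14) and Creb1 (-0.80) among the lower. Glucocorticoid response and heat shock genes were called 0 times between LNA groups. In polysome against total RNA, Zbtb16 (1.04), Hsp90aa1 (0.87) and Hspa8 (0.36) were higher and Sgk1 (-1.09) was lower. With the block, 3 of the 10 glucocorticoid response genes were higher and 4 lower, and 4 of the 8 heat shock genes were higher and 1 lower.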

How the data were processed

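The authors deposited estimated counts per gene. According to the methods and the processing notes, reads of poly(A)-selected libraries were filtered with fastp, cleared of rRNA reads with a bowtie aligner, quantified with kallisto against Ensembl transcripts of GRCm38 and summed to genes with tximport. kallisto shares reads among the transcripts they are compatible with, so counts of similar or overlapping genes are uncertain. The reads were paired and reverse stranded by the methods, and the strand option used in quantification is not given in the sources used here. The age of the mice is that of the series text, and the methods give another for the liver polysomes.

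Estimated counts were rounded, and 0 columns were left without a sample. Genes above a CPM of 0.5 in at least 4 libraries were kept, and compared with quasi-likelihood tests in edgeR 4.0.16 (R 4.3.3) after TMM normalization, at a Benjamini-Hochberg FDR of 0.05 over all genes tested. Total and polysome RNA were fitted apart for the LNA comparison, and all 20 libraries together for polysome loading and its interaction with the LNA. The mouse number in the labels pairs the libraries of an animal, and the deviations of the paired libraries from their group means correlated at 0.108 to 0.518 over genes. Correlations across mice were tested by two-sided permutation with numpy 2.4.6, on ranks from scipy 1.17.1 for rho. Each test drew 100000 random resamples, also where mice were left out. Intervals are 95% intervals of the fitted differences.

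Alternatives were limma-voom (limma 3.58.1), DESeq2 1.42.0, its size factors in edgeR, library totals alone, a CPM above 1 in every library, no filter beyond 1 count, an absolute log2 fold change of at least 0.5, 1 fit of all 20 libraries, the replicate block, each mouse left out and 8 mice without mice 9 and 10. Correlations of centred values or without some mice, and blocked fits without some mice or without TMM, were added after seeing the data. The fits were tested on simulated data, with log2 changes of 1 planted in genes drawn at random. The LNA comparison recovered 69.5% of them in total RNA and 52.3% in polysome RNA. Polysome against total RNA recovered 84.2%. The simulated libraries were drawn independently, without the pairing by mouse, and polysome and total RNA differed in the planted genes only. These rates are for genes drawn from all those tested. They need not hold for genes that vary as widely between mice as Atf3, Fos and Egr1. The genes and all lists were chosen with earlier results of these data known. All 10 genes are named, with called genes of the other lists (up to 5 or 3 a direction; where none was called, the highest and lowest early gene) and the 5 genes most like the group in each RNA at a mean CPM of at least 1. The study left out 1 unnamed liver of each group that did not cluster with the rest. All 10 were kept here, and leaving out mice 9 and 10 was taken from an earlier analysis of these data, not from the labels. No pair of libraries held identical values.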

Additional observations from a re-analysis of the deposited data

Results flagged for a closer look

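Of the groups of 5 mice (60 groups, for the level of each of the 10 genes in each RNA and LNA group and its polysome to total ratio), 3 held a mouse whose gap to its nearest neighbour was above 0.71 of the range of the group, where chance gives about 1 in 20. Zfp36 in total RNA of the SNORA73 LNA group was at 50.3 CPM in mouse 10, a gap of 0.757 of the range. Dusp1 in polysome RNA of the same group was at 14.8 CPM in mouse 10, a gap of 0.754 of the range. Ier3 in polysome RNA of that group was at 0 counts in mouse 6, a gap of 0.723 of the range, and the other 4 mice had only 2 to 5 counts. The size of that gap depends on the pseudocount.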

How the results depend on the processing

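No member was called between LNA groups in total RNA, or for a change in loading, under any alternative, and the same held in polysome RNA except that 1 fit of all 20 libraries called 1, Ier3. For polysome against total RNA the count was 3, and rose to 8 with the replicate block, to 7 with the block in 8 mice and to 7 with the block and library totals alone. The 8 include Ier3, which did not pass the filter in polysome RNA alone. Leaving out 1 mouse gave 1 to 4 without the block and 7 to 8 with it. The block changed no call of the 10 genes for a change in loading, and it raised the counts of the other early response, upstream, glucocorticoid response, heat shock, neutrophil and red blood cell lists, given beside them. The cause of these moves was not tested, beyond the fewer samples or genes some of them hold. DESeq2 called 68 genes in total RNA and 282 in polysome RNA where edgeR called 4 and 2, 1 fit of all 20 libraries called 317 in polysome RNA, and no filter beyond 1 count called 13 and 72. Without mice 9 and 10, edgeR called 97 genes in total RNA and 31 in polysome RNA. Without mouse 9 alone it called 59 and 17. The small number of genes called between LNA groups thus depended on the mice kept and on the tool.

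Directions near 0 were not stable. In the LNA comparison in total RNA, library totals alone gave -0.0779 for Junb and -0.12 for Zfp36, no filter gave -0.00714 for Zfp36 and 8 mice gave 0.12 for Ier2. In polysome RNA, limma-voom gave 0.13 for Junb, and 8 mice gave 0.0596 for Junb, 0.25 for Atf3 and 0.14 for Ier2. Leaving out 1 mouse gave ranges in total RNA of -0.24 to 0.13 for Ier2, -0.10 to 0.50 for Junb and -0.0396 to 0.11 for Zfp36. In polysome RNA they were -0.31 to 0.39 for Junb, -0.21 to 0.10 for Ier2, -0.0518 to 0.59 for Dusp1, -1.76 to 0.19 for Atf3 and -0.27 to 0.00943 for Zfp36.

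Across mice, r of total with polysome level lost its threshold without the 2 farthest mice for Klf6 (0.660), Ier3 (0.395) and Zfp36 (0.363). Without 1 mouse, r ran from 0.582 to 0.781 for Ier3, lost without mouse 1 (0.668) or mouse 9 (0.582), and from 0.476 to 0.929 for Zfp36, lost without mouse 10. With 5 mice a group and the spread between them, changes of Fos, Egr1 and Atf3 smaller than several-fold were not detectable, and Ier3 was limited by its counts.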

Other observations

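Among the other early response genes, the smallest adjusted p between LNA groups was that of Plk3, a polo-like kinase gene, chosen here after its values were seen. Its log2 fold change was -1.26 in total RNA (SE 0.26, adjusted p = 0.215 by edgeR) and -1.73 in polysome RNA (SE 0.28, adjusted p = 0.0649 by edgeR), so that it was not called in either. Jund, whose protein pairs with that of Fos, was higher in polysome than in total RNA (0.69, SE 0.18, adjusted p = 0.00315 by edgeR), where Jun was at -0.40 and Junb at 0.12 in the same fit.

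Red blood cell markers were higher in polysome than in total RNA for 4 of 5 genes and neutrophil markers for 0 of 3 tested (edgeR, all 3 at an unadjusted p under 0.05), with medians of 0.74 and 1.06, where 28.5% of all genes were higher. With the replicate block 5 of 5 and 3 of 3 were higher, where 33.2% of all genes were. T and B cell markers summed to 2.16 to 4.05 CPM in total RNA, and stellate cell markers to 231 to 356 CPM. Red blood cell markers summed to 231 to 781 CPM in total RNA, and their part in the levels of the early genes was not tested.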
